A study of Homo sapiens with 4 samples.

Results

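Interleukin-6 family cytokines, their receptors and their signalling proteins were examined in MDA-LM2 cells after siRNA against the transcription factor SOX4. The set holds 10 genes: the ligands IL11, IL6, LIF and CLCF1, the receptor chains IL6ST, LIFR, OSMR and IL11RA, and the signalling genes SOCS3 and STAT3. These genes were chosen with their differences between siSOX4 and siControl arrays already known, IL11 above all, so their values in that comparison are given as a description and without a test. The platform annotation named 13 probes for 8 of the 10 genes, and all 8 were among the 11389 genes measured. No probe carried the name CLCF1 or IL11RA in that annotation.

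MDA-LM2 is a metastatic subline of MDA-MB-231, an established human line from a breast cancer. The tested cells (siSOX4, 2 arrays) received siRNA against SOX4, and the comparison cells (siControl, 2 arrays) received control siRNA. All cells were transfected with the same lipid reagent, and total RNA was taken 48 h later. The series used a pair of siRNAs against SOX4, but the labels do not state whether sample numbers 1 and 2 stand for them, nor whether samples of a group were separate cultures. The p-values below therefore rest on the spread between samples of a group, and that spread may be technical only. A bulk RNA sample does not tell a change in the share of cells that make a transcript from a change in the amount per cell.

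Cytokines of this family share the receptor chain gp130, the product of IL6ST. Each ligand assembles gp130 with further receptor chains (the IL11RA product for interleukin-11, LIFR for LIF, OSMR or LIFR for oncostatin M), and the JAK kinases bound to the complex phosphorylate STAT3. STAT3 switches on target genes that include SOCS3, whose product binds gp130 and shuts the signal off. In breast cancer, interleukin-11 is known as a factor secreted by cells that colonise bone, where it promotes the formation of bone-resorbing osteoclasts.

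The stretches upstream of 3 members are shown because IL11 and IL6ST had the largest differences among the members, both above the controls, and IL6 was low on 1 siSOX4 array only. The genes themselves lie at chr19:55364382-55370463 (IL11), chr5:55935095-55994963 (IL6ST) and chr7:22727200-22731998 (IL6). Each is the 250 bases before the gene start in RefSeq (GRCh38.p14), written 5′ to 3′ on the gene's strand. IL11 is read from chr19:55370464-55370713 (minus strand), IL6ST from chr5:55994964-55995213 (minus strand) and IL6 from chr7:22726950-22727199 (plus strand). Capitals mark matches to TGANTCA (AP-1), ACAAAG (the core recognised by SOX factors) or TTCNNNGAA (STAT), searched on both strands.
IL11: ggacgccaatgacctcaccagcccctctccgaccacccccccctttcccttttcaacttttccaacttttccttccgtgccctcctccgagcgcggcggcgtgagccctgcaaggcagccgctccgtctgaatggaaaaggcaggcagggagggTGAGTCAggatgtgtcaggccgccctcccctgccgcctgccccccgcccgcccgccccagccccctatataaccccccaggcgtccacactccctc
IL6ST: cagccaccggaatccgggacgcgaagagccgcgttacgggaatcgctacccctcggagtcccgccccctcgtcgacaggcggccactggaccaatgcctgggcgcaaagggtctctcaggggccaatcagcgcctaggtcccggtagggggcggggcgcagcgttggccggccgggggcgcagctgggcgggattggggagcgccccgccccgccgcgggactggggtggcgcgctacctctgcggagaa
IL6: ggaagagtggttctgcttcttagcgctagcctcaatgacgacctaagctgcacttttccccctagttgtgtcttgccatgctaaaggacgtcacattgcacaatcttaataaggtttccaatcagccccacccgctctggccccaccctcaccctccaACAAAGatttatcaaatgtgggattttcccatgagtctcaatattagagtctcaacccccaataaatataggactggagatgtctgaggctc

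The IL11 stretch held 1 AP-1 match, TGAGTCA, at positions -96 to -90 from the gene start, and no match to the SOX or STAT letters. The IL6 stretch held 1 SOX core match, ACAAAG, at positions -92 to -87. The IL6ST stretch held none of the 3 motifs. No match overlapped another motif. Over all 35116 promoter windows of this length in the same RefSeq table, 6.57% held the AP-1 letters, 13.7% the SOX core and 6.57% the STAT letters. The table had windows for 8 of the 10 members, 12 windows in all. LIFR was the member with STAT matches, TTCCTTGAA and TTCATCGAA, in 2 of its windows, and SOCS3 held a SOX core match, CTTTGT, in 1 of its windows. These LIFR and SOCS3 windows lie within the spans of their genes, not before the gene start. The SOCS3 window directly before the gene start held none of the 3 motifs.

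SOX4 itself was read by 1 probe with signals of 206 and 193 on siSOX4 arrays 1 and 2, against 253 and 239 on siControl arrays 1 and 2. Both siSOX4 values lay below both controls, but the log2 difference of -0.35 ± 0.19 (SE, n = 2 each) did not pass (limma, adjusted p = 0.487). The siSOX4 arrays were farther from each other (SD of the log2 difference 0.43 over 20118 kept probes) than the controls were (0.26), and 19655 and 20292 of 47323 probes were detected on siSOX4 arrays 1 and 2, against 18609 and 19346 on siControl arrays 1 and 2. All 6 markers of the MDA-MB-231 lineage (VIM, CD44, KRT18, AXL, CAV1 and MSN) were detected on every array. ESR1, PGR, CDH1 and FOXA1, which this lineage is known to lack, were detected on none, and GATA3, also expected to be low, on 2 arrays. PTPRC and CD3E of immune cells, CDH5 of endothelium and DCN of fibroblasts were also detected on none, whereas CD14, PECAM1 and COL1A1 were detected on all 4. PECAM1 signals were 109 and 140 at the lowest and highest on siSOX4 arrays, against 97.6 and 104 on siControl arrays, and its part in the results below was not tested.

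IL11, which encodes the cytokine interleukin-11, had the largest increase of all 11389 genes in the difference of group means. Its 1 probe gave 937 and 167 signal units on siSOX4 arrays 1 and 2, against 93.3 and 107 on siControl arrays 1 and 2. Both siSOX4 arrays were above both controls, and siSOX4 array 1 was far above siSOX4 array 2. After background correction and normalization the log2 values were 9.84 and 6.87 on siSOX4 arrays 1 and 2, against 5.28 and 5.77 on siControl arrays 1 and 2. The group means were 8.36 ± 2.11 for siSOX4 and 5.53 ± 0.35 for siControl (SD, n = 2 each), a log2 difference of 2.83. Relative to the mean of the controls, siSOX4 array 1 stood 4.32 log2 units higher and siSOX4 array 2 stood 1.34 higher. The gap of 2.98 log2 units between the siSOX4 arrays was the widest of any measured gene, so the size of the IL11 difference rests on which array is read.

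The IL11 fold also depended on how background was treated, and the control signals lay just above the detection limit. The IL11 signal was 10.6 and 2.05 times the lowest detected signal on siSOX4 arrays 1 and 2, against 1.03 and 1.25 times on siControl arrays 1 and 2. The probe was detected on all 4 arrays, with detection p-values of 0 on both siSOX4 arrays, 0.0364 on siControl array 1 and 0.0013 on siControl array 2. With background correction the fold over the control mean was 19.9 on siSOX4 array 1 and 2.53 on siSOX4 array 2, or 7.10 for the mean of both. On the authors' scale, the signal over the array median, the same folds were 9.22 and 1.76, or 4.03 for the mean. In the authors' deposited table the ratio of siControl to siSOX4 for IL11 was 0.183, the lowest of its 43961 entries. That ratio is of arithmetic group means, in which siSOX4 array 1 weighs most, whereas the 4.03 is a mean on the log2 scale.

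**Figure D1:**
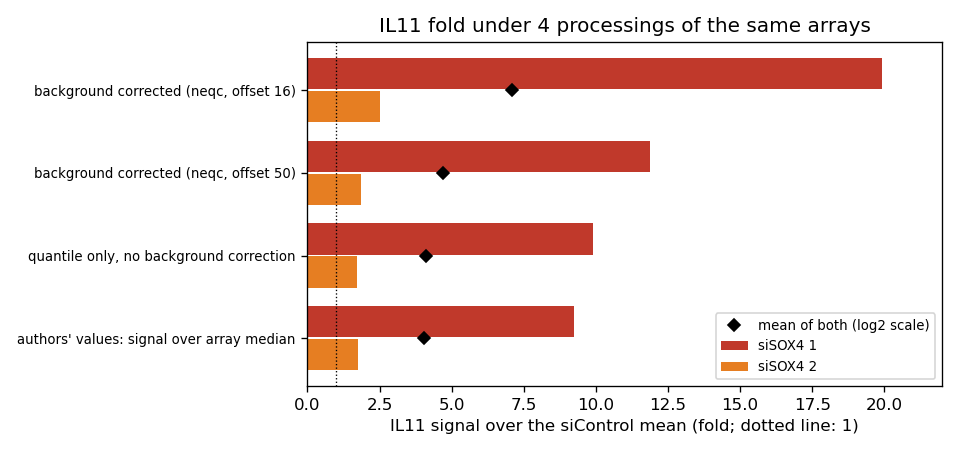
IL11 signal on each siSOX4 array as a fold over the mean of the siControl arrays (horizontal axis, linear, starting at 0), under 4 ways of processing the same 4 arrays (rows). Bars are single arrays and diamonds the mean of both on the log2 scale; siSOX4 array 1 runs from 9.22-fold to 19.9-fold and siSOX4 array 2 from 1.72-fold to 2.53-fold, all above the dotted line at 1.

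IL6, the cytokine that gives the family its name, did not follow IL11. Its probe gave 161 and 293 signal units on siSOX4 arrays 1 and 2, against 240 and 310 on siControl arrays 1 and 2. Only siSOX4 array 1 lay below both controls, and siSOX4 array 2 lay between them. The log2 means were 7.34 ± 0.78 for siSOX4 and 7.75 ± 0.34 for siControl (SD, n = 2 each). Against the control mean, siSOX4 array 1 differed by -0.96 and siSOX4 array 2 by 0.14, so the difference of -0.41 between the groups came from array 1, the same array on which IL11 was highest. The gap of IL6 between the siSOX4 arrays, -1.10 for array 1 minus array 2, ranked 251 in size among the 11389 genes.

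LIF, the leukaemia inhibitory factor, gave 152 and 187 signal units on siSOX4 arrays 1 and 2, against 210 and 164 on siControl arrays 1 and 2. The groups overlapped, and the controls were 0.46 log2 units apart, more than the group difference of -0.16. CLCF1, cardiotrophin-like cytokine factor 1, had a ratio of siControl to siSOX4 of 0.883 in the authors' deposited table, where it is listed by its RefSeq accession. Exactly 1 probe, unnamed in the annotation, had that ratio within a relative tolerance of 1e-06. Taken as CLCF1 on that basis, it gave 611 and 627 signal units on siSOX4 arrays 1 and 2, against 522 and 587 on siControl arrays 1 and 2. Both siSOX4 arrays lay above both controls, by 0.25 log2 units each against their mean, a distance close to the 0.22 between the controls.

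**Figure D2:**
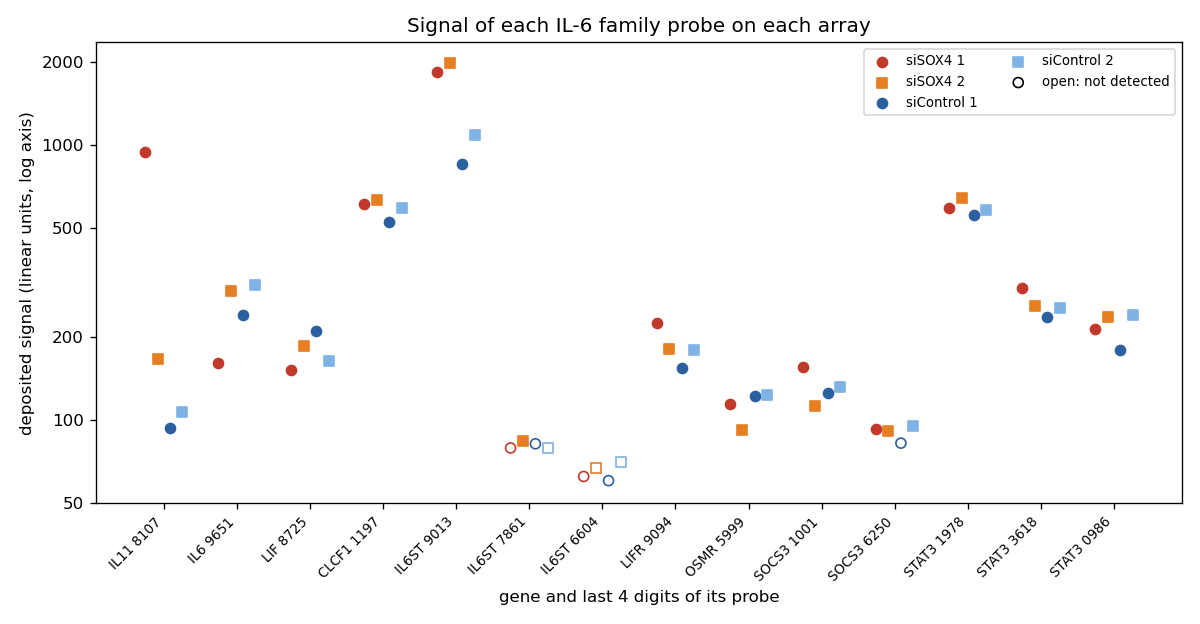
Deposited signal (vertical axis, linear units drawn on a log axis) of each probe of the family, named by gene and the last 4 digits of its probe number, on siSOX4 arrays 1 and 2 (red, orange) and siControl arrays 1 and 2 (dark blue, light blue). Open symbols were not detected; IL11 is at 937 on siSOX4 array 1 and the bright IL6ST probe is at 1839 and 1972 on siSOX4 arrays against 847 and 1082 on siControl arrays, and heights of different probes are not comparable.

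Among the receptors, IL6ST, the gene of the shared chain gp130, had the largest difference, about 2-fold higher on both siSOX4 arrays. Its bright probe, annotated through the accession AB074172, gave 1839 and 1972 signal units on siSOX4 arrays 1 and 2, against 847 and 1082 on siControl arrays 1 and 2. Every siSOX4 value was above every control, and unlike those of IL11 the siSOX4 arrays lay close together. The log2 means were 10.90 ± 0.03 for siSOX4 and 9.79 ± 0.28 for siControl (SD, n = 2 each), a difference of 1.11 or 2.15-fold. The single-array folds over the control mean were 2.12 and 2.18 for siSOX4 arrays 1 and 2, and 1.88 and 2.16 on the authors' scale. IL6ST ranked 80 from the top among the 11389 genes by its difference.

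The other IL6ST probes did not show this increase. Both are annotated to the reference transcript NM_002184, and both lay at background. Probe ILMN_1797861 gave 79.3 and 84.0 signal units on siSOX4 arrays 1 and 2, against 82.1 and 79.5 on siControl arrays 1 and 2, and was detected on siSOX4 array 2 alone. Probe ILMN_1746604 gave 62.4 and 67.1 on siSOX4 arrays 1 and 2, against 60.3 and 70.2 on siControl arrays 1 and 2, and was detected on no array. The IL6ST value therefore rests on the probe of AB074172, and which IL6ST transcripts that probe binds was not tested.

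LIFR and OSMR, which pair with gp130 for LIF and oncostatin M, lay on opposite sides of the controls. LIFR gave 226 and 182 signal units on siSOX4 arrays 1 and 2, against 154 and 180 on siControl arrays 1 and 2. Its groups did not overlap, but siSOX4 array 2 exceeded siControl array 2 only narrowly, at 7.02 against 6.99 on the log2 scale. The LIFR log2 difference was 0.45, with 0.69 on siSOX4 array 1 and 0.21 on siSOX4 array 2. OSMR gave 115 and 91.8 signal units on siSOX4 arrays 1 and 2, against 122 and 123 on siControl arrays 1 and 2. Both siSOX4 arrays were below both controls, by -0.15 and -0.67 log2 units for arrays 1 and 2, with a group difference of -0.41. The OSMR difference was -0.22 without background correction and -0.24 on the authors' values. The lowest detected signal on siSOX4 array 2 was 81.4, so OSMR lay near the detection limit there. IL6ST, LIFR and OSMR all lie on chromosome 5. IL11RA, the chain specific to interleukin-11, was not analysed here, since no probe was named for it and none of its RefSeq accessions matched the authors' table.

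**Figure D3:**
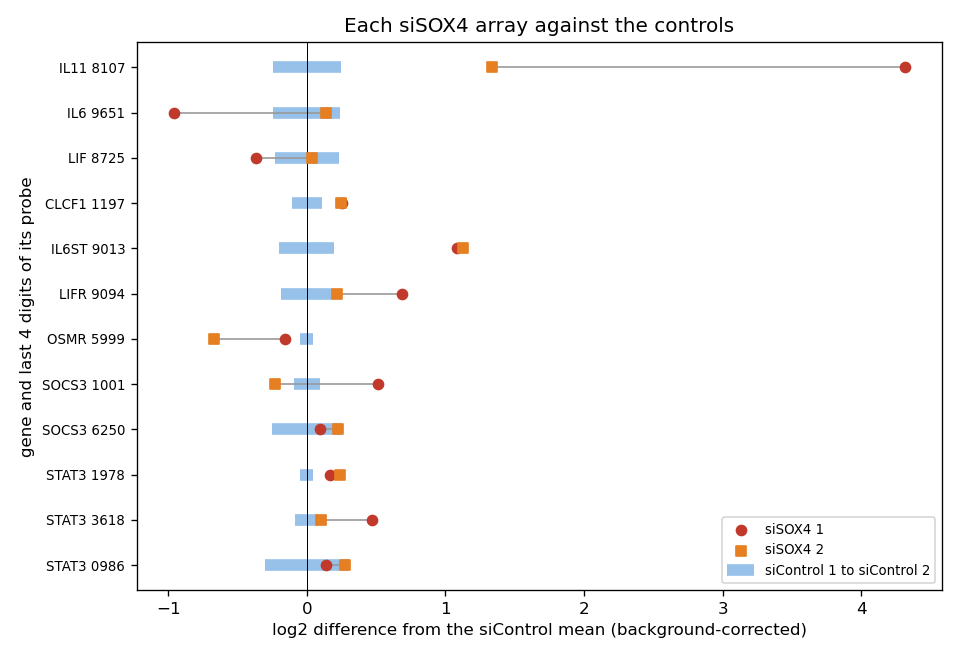
Log2 difference of siSOX4 array 1 (red circle) and siSOX4 array 2 (orange square) from the mean of the siControl arrays (horizontal axis), for each kept probe of the family and the CLCF1 probe (rows). Blue bars span siControl array 1 to siControl array 2. IL11 stands at 4.32 and 1.34, the IL6ST points nearly coincide at 1.09 and 1.13, and for LIF and IL6 the siSOX4 array 2 point falls within the control span. For the dimmer SOCS3 probe and the dimmest STAT3 probe both siSOX4 points fall within it.

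STAT3, the transcription factor that carries the signal to the nucleus, had 3 probes, and all had a slightly higher siSOX4 mean. The brightest gave 591 and 638 signal units on siSOX4 arrays 1 and 2, against 553 and 578 on siControl arrays 1 and 2. Its groups did not overlap and its log2 difference was 0.20, but on the authors' values the difference was 0.14 and the groups overlapped. A second STAT3 probe had a difference of 0.29, with 0.47 and 0.10 on siSOX4 arrays 1 and 2. Its groups were apart only narrowly, with siSOX4 array 2 at 7.68 against 7.66 on siControl array 2. The remaining STAT3 probe had 0.21 with groups that overlapped, its controls being 0.61 apart. SOCS3, the feedback inhibitor that STAT3 induces, went in opposite directions on the siSOX4 arrays by its brighter probe but not by its dimmer one. Its brighter probe gave 156 and 112 signal units on siSOX4 arrays 1 and 2, against 125 and 132 on siControl arrays 1 and 2. Against the control mean that is 0.52 log2 units on siSOX4 array 1 and -0.23 on siSOX4 array 2. The dimmer SOCS3 probe, detected on 3 of 4 arrays, had a difference of 0.16 with groups that overlapped. It was at 0.09 on siSOX4 array 1 and 0.23 on siSOX4 array 2.

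Across the 8 members with an annotated probe, all detected on 4 arrays, 5 had a positive difference and 3 a negative one, with a median of 0.17 log2 units beside -0.02 over all 11389 genes. The siSOX4 arrays were both above both controls for IL11, IL6ST, LIFR and STAT3, where 22.7% of all genes were, and both below for OSMR, where 25.1% of all genes were. The groups overlapped for IL6, LIF and SOCS3, and on the authors' values for STAT3 as well, which left 4 of 8 members apart beside 45.7% of all genes. Without siSOX4 array 2 all 8 members lay outside the controls, as did 82.5% of all genes read in the same way, and without siSOX4 array 1 it was 6 members and 79.1% of all genes. These shares are given as background only, since the members were chosen on this comparison.

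The 5 genes whose values on the 4 arrays lay nearest to those of IL11 were ALOX5AP, MSLN, ANGPTL4, KISS1 and CPA4. Nearness was the root mean square distance, over the 4 arrays, between log2 values taken relative to each gene's own control mean. ALOX5AP, the 5-lipoxygenase activating protein of leukotriene synthesis, was nearest at 0.72 log2 units, with 3.18 and 0.68 on siSOX4 arrays 1 and 2. MSLN, the cell-surface protein mesothelin, followed at 0.84, with 2.64 and 1.18. ANGPTL4, a secreted inhibitor of lipoprotein lipase, was at 0.93, with 2.48 and 1.58. KISS1, the precursor of the kisspeptin peptides, was at 0.95, with 2.50 and 0.80, and the carboxypeptidase gene CPA4 at 0.99, with 2.47 and 1.15. All 5 were higher on siSOX4 array 1 than on siSOX4 array 2, which choosing them by nearness to IL11 favours and which is therefore no finding.

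**Figure D4:**
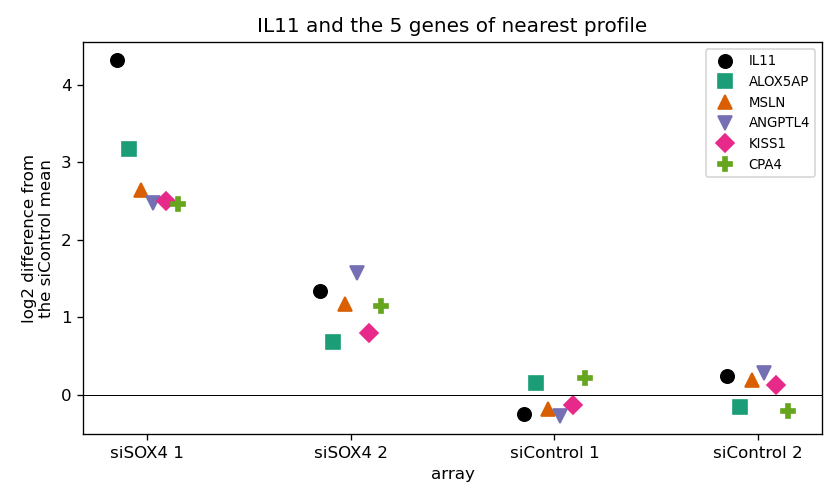
Log2 difference from the siControl mean (vertical axis) on each of the 4 arrays (horizontal axis) for IL11 and the 5 genes of nearest profile. On siSOX4 array 1 IL11 is at 4.32 and the others lie between 2.47 and 3.18; on siSOX4 array 2 IL11 is at 1.34 and the others lie between 0.68 and 1.58.

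Further genes of the pathway, none of them a member, were compared with limma over all kept probes. Of 101 genes in 6 lists, 73 were measured. The lists too were fixed with earlier results of these data known, so their counts beside those of all genes are a description only. None had an adjusted p under 0.05 (limma; smallest 0.138), as was so for all 11389 genes (0%). At an unadjusted p under 0.05 there were 9 of 73 higher and 7 lower in siSOX4 cells, beside 7.44% higher and 7.39% lower among all genes (14.8% in either direction). The 9 higher genes include STAT4, which was measured only through its detection on the siSOX4 arrays. The 16 genes became 30 without siSOX4 array 1, 35 without siSOX4 array 2, 4 without siControl array 1 and 9 without siControl array 2. The counts over all genes moved the same way, to 2860, 4090, 407 and 672 of 11389. Genes past the adjusted threshold numbered 19 of 73 without siSOX4 array 1, beside 12% of all genes, and 21 of 73 without siSOX4 array 2, beside 24.7% of all genes. In these fits the lone siSOX4 sample is assumed to vary as the controls do. The median log2 difference was -0.01 in the lists and -0.02 over all genes.

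Most other ligands and private receptors of the family were not detected well enough to be measured. Of 13 genes of this list, including the sheddases ADAM10 and ADAM17, 5 were measured. CTF1, CNTF, IL27 and CNTFR were detected on no array, and the interleukin-6 receptor gene IL6R on 1 array at most. ADAM17, the protease that releases membrane-bound IL-6 receptor, had log2 values of 6.81 and 6.82 on siSOX4 arrays 1 and 2, against 7.61 and 7.43 on siControl arrays 1 and 2. Its difference was -0.70 ± 0.20 (SE, n = 2 each; limma, adjusted p = 0.226), and its other kept probes gave -0.62 and -0.54. EBI3, a subunit of interleukin-27, differed by 0.37, OSM by -0.10 and ADAM10 by -0.07, with overlapping groups in each case.

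Among JAK kinases, other STATs and adaptors, 14 of 17 were measured and 5 had a positive and 9 a negative difference, with a median of -0.12. STAT4 differed by 0.55 ± 0.20 and the Src-family kinase gene YES1 by 0.44 ± 0.18 (SE), the 2 with an unadjusted p under 0.05 in this list. STAT4 was detected on both siSOX4 arrays and on neither siControl array, so it was measured only through the group where it was higher. STAT5A differed by -0.43 and the kinase gene JAK2 by -0.31. Among the negative regulators of JAK-STAT signalling, 12 of 16 were measured and the median was 0.10. SOCS2, which restrains growth hormone signalling, had log2 values of 9.07 and 8.49 on siSOX4 arrays 1 and 2, against 7.92 and 8.17 on siControl arrays 1 and 2, a difference of 0.73 ± 0.23 (SE; limma, adjusted p = 0.278) that a second probe gave as 0.65. SOCS4 differed by 0.59 ± 0.22 (SE), but its other probes gave 0.01 and 0.19. SOCS1 differed by 0.28 and the phosphatase gene PTPN1 by -0.26.

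Of the known targets of STAT3, 20 of 28 were measured, and 9 had a positive and 11 a negative difference, with a median of -0.03. CEBPD, a transcription factor of the acute-phase response to interleukin-6, had log2 values of 7.20 and 7.68 on siSOX4 arrays 1 and 2, against 8.67 and 8.50 on siControl arrays 1 and 2. Both siSOX4 arrays were far below both controls. The CEBPD difference was -1.14 ± 0.22 (SE, n = 2 each; limma, adjusted p = 0.138), or 2.21-fold less in siSOX4 cells. BCL3, an atypical IkB protein, differed by -0.88 ± 0.22 and the transcription factor KLF4 by -0.86 ± 0.24, each further on siSOX4 array 1 (-1.14 and -1.24) than on siSOX4 array 2 (-0.62 and -0.48). HIF1A, the oxygen-regulated transcription factor, went the other way with 0.74 ± 0.16 (SE; limma, adjusted p = 0.158), at 0.77 and 0.71 on siSOX4 arrays 1 and 2 and 0.38 and 0.50 by its other probes. HSP90AA1, named after its values were seen, differed by 0.36 and was the remaining target with an unadjusted p under 0.05.

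Genes reported together with IL11 in breast cancer cells that colonise bone were measured in 9 of 11 cases, with a median of 0.11. FST, the activin antagonist follistatin, had log2 values of 9.50 and 8.64 on siSOX4 arrays 1 and 2, against 8.04 and 8.43 on siControl arrays 1 and 2. Its difference was 0.83 ± 0.29 (SE; limma, adjusted p = 0.307), and like IL11 it was higher on siSOX4 array 1. CCN2, the connective tissue growth factor gene, differed by 0.53 ± 0.18 and SPP1, which encodes osteopontin, by -0.65 ± 0.22 (SE). DUSP1, a phosphatase of MAP kinases, was at 1.18 on siSOX4 array 1 and -0.13 on siSOX4 array 2. CXCR4, another gene of this group, was detected on no array.

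Factors reported to act on the IL11 gene (AP-1 proteins, SMADs and their receptors, RUNX2 and others) were measured for 13 of 16 genes, with a median difference of 0.00 beside -0.02 over all genes. RUNX2, the osteoblast transcription factor, differed by 0.68 ± 0.26 (SE; limma, adjusted p = 0.34), with 0.34 and 1.02 on siSOX4 arrays 1 and 2. Whether any of these factors acted on IL11 in these cells was not tested. The AP-1 gene FOSB differed by -0.56 ± 0.21 and the TGF-beta receptor gene TGFBR2 by -0.54 ± 0.22 (SE). SMAD3, which transmits the TGF-beta signal, differed by -0.45, with -0.07 and -0.82 on siSOX4 arrays 1 and 2. No gene of this list passed the adjusted threshold.

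**Figure D5:**
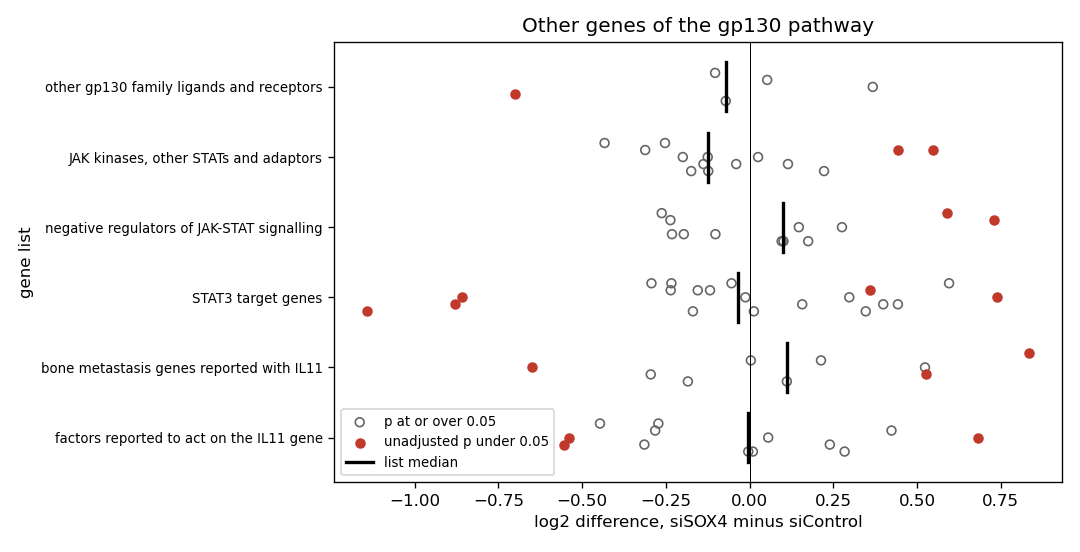
Log2 difference, siSOX4 minus siControl (horizontal axis), of each measured pathway gene outside the family (circles), by list (rows). Red circles have an unadjusted p under 0.05 in limma and black bars are list medians, which run from -0.12 to 0.11; CEBPD is the leftmost gene at -1.14 and FST the rightmost at 0.83.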

How the data were processed

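RNA of 4 MDA-LM2 samples was hybridised to Illumina expression BeadChips, 1 array per sample and 2 per group. The deposited table gives, per the file headers, a linear signal intensity and a detection p-value for 47323 probes, without background subtraction. The authors' series matrix holds the ratio of signal to the median of the same array, and the authors' deposited fold table the ratio of siControl to siSOX4 means. The software that made the signals is not stated in the labels or headers.

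Signals were processed with limma 3.58.1 in R 4.3.3 (neqc: normexp from detection p-values, offset 16, quantile normalization, log2). Probes with detection p under 0.05 on at least 2 arrays were kept (20118). The annotation gave 1 symbol for 30113 probes, several for 8 and none for 17202. A gene was its kept probe of highest mean signal. Groups were compared with lmFit and eBayes (trend), two-sided, Benjamini-Hochberg adjusted over kept probes. An exact permutation test cannot go below p = 0.333 here and was not used. The fit was run on simulated data with the same spread in both groups. The siSOX4 arrays here differed more than the controls, so that run does not measure its accuracy on these arrays. The number of arrays limits the precision.

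Members, lists and tests were chosen with earlier results of these data known. Genes named are the members with all their probes, SOX4, in each list up to 4 of largest difference, and the 5 nearest to IL11 in profile. Alternatives were other background corrections, the authors' values, other probe filters and probe rules, no trend, a replicate block and leaving out each array.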

Additional observations from a re-analysis of the deposited data

How the results depend on the processing

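The IL11 difference stayed positive under every alternative run, between 1.34 (without siSOX4 replicate 1) and 4.32 (without siSOX4 replicate 2) on the log2 scale, and was 2.04 without background correction, 2.01 on the authors' values and 2.24 with an offset of 50. The IL6ST, LIFR, OSMR and STAT3 differences kept their direction in all alternatives. For these members and IL11 the groups did not overlap, so leaving out an array could not turn the direction. The other alternatives reuse the same arrays, so the kept direction is no further support. IL6 ranged from -0.96 to 0.14 and SOCS3 from -0.23 to 0.52 when single arrays were left out, both turning without siSOX4 replicate 1. LIF ranged from -0.39 to 0.07, turning without siSOX4 replicate 1 (0.04) and without siControl replicate 1 (0.068). Members whose groups did not overlap numbered 5 of 8, beside 47.7% of all genes. On the authors' values they numbered 4, beside 45.7% of all genes, with STAT3 overlapping (difference 0.14). With an array left out they numbered 6 to 8, beside 65.7% to 82.5% of all genes, since fewer arrays make separation easier. Genes with an adjusted p under 0.05 (limma) numbered 0, with 1689 at an unadjusted p under 0.05. They numbered 1 on the authors' values and 77 with no filter on dim probes, and the cause was not tested. With an array left out they ran from 0 to 2815, the lone remaining sample of a group being assumed to vary like the other group. Pathway genes with an unadjusted p under 0.05 numbered 16, and 4 to 35 with an array left out. With the replicate number as a replicate block, 133 genes passed, or 1.17% of all genes. Among them was 1 pathway gene, CEBPD (limma, adjusted p = 0.0475), or 1.37% of the pathway genes measured. Deviations of same-numbered samples correlated at 0.11 across kept probes, which are not independent, and 2 pairs do not show that the numbers pair the samples.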
